A study of Neurospora crassa with 54 samples.

Results

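The 3 wild-type (WT) RNA-seq libraries of the series were described on their own, as a map of gene activity over the 7 chromosomes of the filamentous fungus Neurospora crassa. They were chosen by their sample labels and are 3 of the 12 RNA-seq libraries and 3 of the 54 samples in all. WT mycelium was grown for 12 h in VMM with 2% glucose at 30 °C under constant light, and the same conditions are given for the 3 other strains, dset7, dhH2Az and dhH2Az_dset7, which lack set-7, hH2Az or both and have 3 libraries each. TruSeq stranded mRNA libraries were made, so the counts speak of polyadenylated RNA. The labels name no separate cultures, so the spread between libraries may be technical.

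Mycelium is the network of growing hyphae of the fungus. Part of its genome lies in silent chromatin that carries methylation of histone H3 at K27, set by the SET-7 methyltransferase and known to be frequent towards chromosome ends. Genes of asexual spores, of mating and of the use of alternative carbon sources are known to be regulated by developmental stage, light or food.

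Total counts were 13581416, 15516529 and 16913628 in WT replicates 1, 2 and 3, over 10398 genes. Replicates 1 and 2, which carry the tag 920 in their labels, lay closer to each other (Pearson r of log2 CPM across genes 0.995) than to replicate 3, which carries another tag (0.983 and 0.987). Each pair differed by more than counting error, with a chi-square per gene of 25.5 for replicates 1 and 2, 191 for 1 and 3 and 136 for 2 and 3. This chi-square is a mean over genes, with the split expected from total counts rather than from the TMM-scaled sizes used below for CPM. A difference in scale between libraries therefore adds to it. The meaning of the tag is not stated, and with 1 library under the other tag no within-tag spread can be had for it. A gene is called silent in a library here when it had under 0.5 CPM, the read count relative to the TMM-scaled size of the library. That is at most 5, 6 and 8 reads in the 3 libraries. Levels of different genes are compared as CPM per kb of exonic length.

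Most of the WT message came from few genes. The 171 genes with a mean of 1000 CPM or more, 1.64% of all genes, held 52.0% ± 4.42 of the counts (SD, n = 3). At the other end, 2034 genes, 19.6% of the 10398, were silent in all 3 libraries, and 696 had no read in any of them. The silent genes include 558 that do not code for protein: 393 of 399 tRNA genes and 75 of 77 rRNA genes were silent, and poly(A) libraries are not made to hold such RNAs. Among the 9729 protein-coding genes, 1476 (15.2%) were silent in all 3 libraries and 321 had no read. The median protein-coding gene had 6.97 CPM per kb, the 25th percentile was 1.11 CPM per kb and the highest 1% above 1177 CPM per kb.

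The most abundant messages were NCU06110 on chromosome VII, nmt-1 on II and emp-7 on I. NCU06110 took 6.76%, 6.0% and 3.84% of the counts in the 3 libraries. nmt-1 (NCU09345), a gene of thiamine synthesis, took 4.85%, 4.30% and 3.51%. Both were lowest in replicate 3. Per length, NCU06110, which overlaps another gene, was highest of all with 23809 ± 8260 CPM per kb (SD, n = 3). Among genes that overlap no other, nmt-1 (chromosome II from 4177546 to 4180504 of NC12, 4 exons) had the highest level per length on chromosome II, at 19938, 18442 and 12285 CPM per kb. On the other chromosomes the highest of these non-overlapping genes were NCU00979 on I with 9167 ± 644 CPM per kb (SD, n = 3), the unnamed gene3915 on III with 5772 ± 1104, eif5A on IV with 2521 ± 299 and cyh-2 on V with 4425 ± 486. eif5A is a translation factor and cyh-2 a ribosomal protein whose mutants resist cycloheximide. ccg-16 (VI), a clock-controlled gene, had 3580 ± 404 CPM per kb. cfp (VII), a pyruvate decarboxylase that forms filaments, had 4881, 4211 and 1678 CPM per kb, again lowest in replicate 3. Chromosome II held 15.9% ± 0.457 of the counts with 10.6% of the exonic length, and chromosome IV 10.4% ± 0.448 with 15.1%. Without the 3 most abundant genes the shares were 13.2% ± 0.286 for II and 11.8% ± 0.230 for IV (all SD, n = 3).

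Genes near chromosome ends were silent more often than the rest. Of the 784 genes whose midpoint lies within 200 kb of an end, 23.6%, 28.7% and 31.0% were silent in WT replicates 1, 2 and 3. Of the 9614 genes elsewhere, 20.4%, 22% and 23.3% were silent. Every near-end value was above every value elsewhere, and the lowest near-end share, in replicate 1, was only slightly above the highest share elsewhere. The means were 27.8% ± 3.79 near ends and 21.9% ± 1.46 elsewhere, and the difference within a library was 5.86 ± 2.36 percentage points (SD, n = 3), with 3.20 in replicate 1, 6.71 in replicate 2 and 7.69 in replicate 3. Both regions belong to the same libraries, so the spread given is between libraries and no test was made between regions. The library with the smallest difference, replicate 1, also had a read in the largest share of tRNA genes, 18.3% against 8.27% and 13.8%, and the fewest genes without a read, 9.42% against 13.7% and 10.9%. The part of these values in the result was not tested.

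The difference lay in rare reads rather than in none. When silent was taken as no read at all, the near-end share minus the share elsewhere was -0.219 ± 2.22 percentage points (SD, n = 3). Within 100 kb of an end the difference was 1.43 ± 2.19 points. Among protein-coding genes alone, the share was 24.2% ± 3.87 for 741 genes near ends and 17.5% ± 1.39 for 8988 elsewhere. The median level of these near-end genes was 3.28, 3.17 and 2.79 CPM per kb in the 3 libraries, against 7.09, 7.04 and 7.49 elsewhere, a ratio of 0.429 ± 0.0487 (SD, n = 3). High levels were also less frequent near ends: 73 genes (9.85%) had a mean of 100 CPM or more, against 1457 (16.2%) elsewhere.

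Beyond the outermost 25 kb, the share of silent protein-coding genes was highest 150 to 500 kb from an end, not nearest to it. It was 15.6% ± 1.56 at 25 to 50 kb from an end, 20.4% ± 2.92 at 50 to 100 kb, 26.7% ± 5.09 at 100 to 150 kb and 30.6% ± 2.96 at 150 to 200 kb. It was 32.9% ± 3.33 at 400 to 500 kb, 25.5% ± 1.59 at 500 to 750 kb and 14.6% ± 1.84 at 1000 to 1500 kb (all SD, n = 3). The 90 genes of the outermost 25 kb had shares of 14.4%, 23.3% and 32.2%, too far apart to place them in this order. The median level was 4.80 ± 0.162 CPM per kb at 25 to 50 kb, 5.71 ± 0.352 CPM per kb at 50 to 100 kb, 2.07 ± 0.230 at 100 to 150 kb, 2.44 ± 0.0647 at 400 to 500 kb and 9.51 ± 0.516 beyond 2000 kb. The outermost 25 kb was again low, at 2.07, 1.87 and 1.82 CPM per kb.

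**Figure D1:**
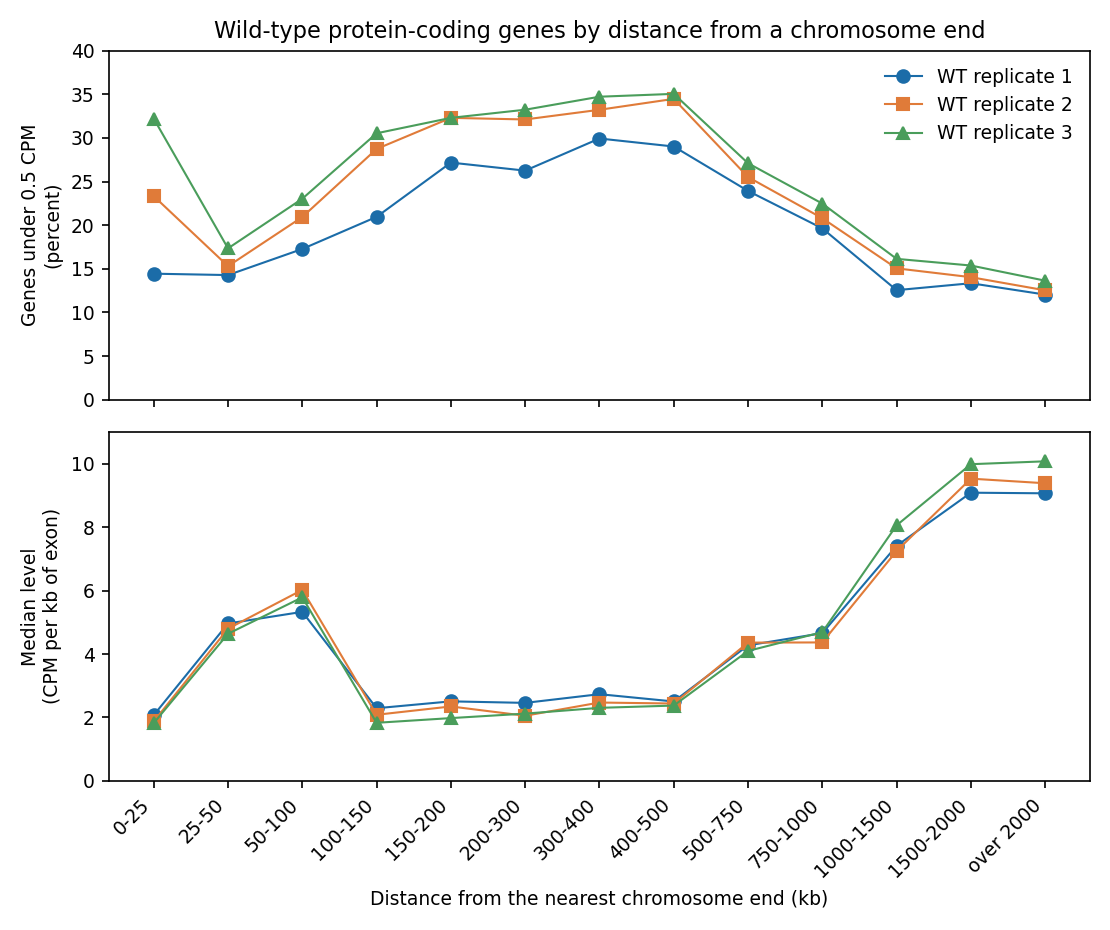
Share of protein-coding genes under 0.5 CPM (upper panel, percent) and median level (lower panel, CPM per kb of exon) by distance from the nearest chromosome end in kb, with a line for each of the 3 WT libraries. The share lies between 26.3% and 35.1% from 200 to 500 kb and between 12.0% and 13.6% beyond 2000 kb, and the median level dips between 100 and 500 kb.

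The 1040 protein-coding genes 200 to 500 kb from an end, a zone chosen after its values were seen, were silent in 28.4%, 33.3% and 34.3% of cases, a mean of 32.0% ± 3.18 (SD, n = 3). The 6355 genes beyond 1000 kb had 12.5%, 13.6% and 14.7%. Gene length differed along the chromosomes, with a median exonic length of 1442 bases at 400 to 500 kb and 2096 bases beyond 2000 kb. Among genes under 1000 bases, 72.7% ± 4.73 were silent at 200 to 500 kb, 62.6% ± 6.24 within 200 kb and 55.5% ± 4.00 beyond 1000 kb. Among genes of 1000 to 2000 bases, the shares were 29.4% ± 3.57, 23.5% ± 4.75 and 13.2% ± 1.12. Among genes over 2000 bases they were 7.5% ± 1.85, 7.32% ± 2.08 and 3.05% ± 0.374, where the zones at 200 to 500 kb and within 200 kb differed by less than their spread.

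The chromosomes differed in this pattern. The mean silent share of protein-coding genes was higher within 200 kb of the ends than elsewhere on 7 of 7 chromosomes, and in every library on 5 of 7; 12 of 14 ends were above the rest of their chromosome. On chromosome I the shares were 27.7% ± 3.04 near ends and 14.5% ± 0.868 elsewhere, and on V 28.9% ± 5.76 and 16.9% ± 1.33. On II the difference within a library was 0.235, 5.54 and 5.18 percentage points in replicates 1, 2 and 3. On III and VII its sign changed between libraries, with 20.4% ± 2.70 against 19.2% ± 1.85 on III and 21.8% ± 2.73 against 21.6% ± 1.68 on VII. The left end of VI had the highest share of the 14 ends, 30.4% ± 3.09, and the left end of III the lowest, 13.6% in each library (44 genes). At 200 to 500 kb chromosome III stood highest, with 44.9%, 55.1% and 55.8% of 147 genes silent and a median level of 0.358 ± 0.153 CPM per kb. Chromosome V followed with 41.1% ± 3.47 and VI with 35.2% ± 4.24, while II had 20.4% ± 1.86 (all SD, n = 3) and I between 18.5% and 21.5%. Chromosome I alone had a lower share at 200 to 500 kb than within 200 kb.

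**Figure D2:**
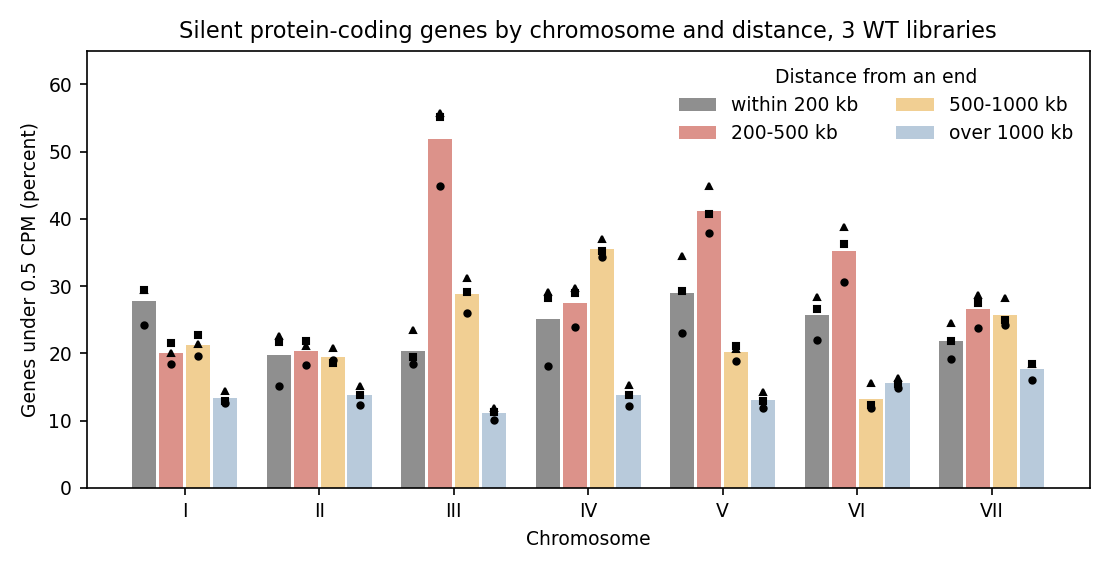
Percent of protein-coding genes under 0.5 CPM on each of the 7 chromosomes, in 4 classes of distance from an end. Bars are means of the 3 WT libraries and points are the libraries (circle, square and triangle for replicates 1, 2 and 3), and the bar for 200 to 500 kb on chromosome III reaches 51.9%.

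Some silent genes stood side by side. The 2034 genes formed 1338 runs of neighbours, 985 of them a gene on its own, and 43 runs of 5 or more held 326 genes (16%). Of these 43 runs, 4 had a gene within 200 kb of an end, 29 had a gene 200 to 1000 kb from an end, and 13 lay wholly beyond 1000 kb. Of all genes, 7.54% lie within 200 kb of an end. Among protein-coding genes alone there were 32 such runs, and the same counts were 3, 23 and 8. Of the 9729 protein-coding genes, 741 lie within 200 kb of an end, 1040 at 200 to 500 kb, 1593 at 500 to 1000 kb and 6355 beyond. The longest of the 43 runs was a block of 31 genes on chromosome III, NCU08237 to NCU08263, 30 of them protein-coding. It spans 4743262 to 4820221 (77.0 kb), with its nearest gene 454 kb from the end. Its genes together had 57, 5 and 38 reads in WT replicates 1, 2 and 3, or 0.173, 0.0139 and 0.0790 CPM per kb. Replicate 2 was far below the other libraries here, as in its share of tRNA genes with a read.

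The next runs were 15 genes on I from NCU02873 to NCU15069 (8848772 to 8884347), 14 on VI from NCU12076 to NCU15684 (432497 to 480674), 13 on VII from NCU06895 to NCU06905 (692576 to 721156) and 10 on IV from NCU08838 to NCU08829 (5071805 to 5100144). The gene of each run nearest to an end had its midpoint 433 to 888 kb from it. The run on VII had 22, 9 and 13 reads in WT but 900, 617 and 284 in dhH2Az. NCU06895, its outermost gene, had 866, 584 and 277 of these, against 3, 6 and 5 reads in WT and 102, 52 and 117 in dhH2Az_dset7. The block on III had 107, 104 and 38 reads in dset7, 7, 9 and 20 in dhH2Az and 145, 18 and 109 in dhH2Az_dset7. Here dset7 replicate 3 had as many as WT replicate 3. These runs were chosen by their WT counts, so these values are given without a test.

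Near the ends there were also very active genes, of which the 10 highest that overlap no other gene are given. aac (NCU09477), the mitochondrial ADP/ATP carrier, lies 64.1 kb from an end of chromosome II and had 4986, 6046 and 5476 CPM per kb. Its neighbour NCU09476, at 68.2 kb, had 4974 ± 936 CPM per kb (SD, n = 3). crp-7 (NCU08627), a protein of the cytosolic ribosome on chromosome I at 129 kb, had 3289 ± 297, and NCU08620 at 146 kb had 2905 ± 435. NCU05032 on VI had 2040 ± 388 CPM per kb. All 5 were above the 99th percentile of protein-coding genes. They were followed by NCU09152 on III with 661 ± 266 and hsp70-1, a chaperone gene on II, with 605 ± 109. NCU08847, NCU08882 and NCU11348 on V had between 282 and 404 CPM per kb. Of these 10, NCU09152 and NCU08847 differed by over 2-fold between libraries and were lowest in replicate 3.

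Long genes without any read were few. Among genes that overlap no other, the longest near an end was NCU08853 on V, 2631 exonic bases and 129 kb from the end, followed by NCU05019 (VI, 1284 bases), NCU08780 (III, 772 bases), NCU07152 (V, 585 bases) and NCU08866 (V, 477 bases). Elsewhere the longest were NCU03104 (I, 3834 bases), NCU09391 (VII, 2427 bases), NCU16528 (II, 2103 bases), NCU01091 (V, 2103 bases) and NCU07766 (V, 2078 bases). A count of 0 allows up to 3 reads, which is 0.253, 0.231 and 0.173 CPM in the 3 libraries. Floors of this kind cover counting error only.

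Gene structure went with the level. Of the protein-coding genes of up to 300 exonic bases 90.4% ± 1.92 were silent, of those of 500 to 1000 bases 51.0% ± 4.00, of those of 1500 to 2000 bases 11.4% ± 1.65 and of those of 4000 to 6000 bases 0.682% ± 0.273 (all SD, n = 3). A fixed CPM threshold asks a higher level per length of a short gene, and its part in these shares was not tested. The median level per length was 0.599 ± 0.170 CPM per kb at 500 to 1000 bases against 11.5 ± 0.206 at 1500 to 2000 bases. It fell again in long genes, to 4.73 ± 0.670 CPM per kb above 6000 bases. Silent protein-coding genes had a median exonic length of 838 bases and a median gap of 1130 bases to their neighbours, against 2153 and 694 bases for the other protein-coding genes.

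Single-exon genes were silent most often. Of all 2354 genes of 1 exon, which include the tRNA and rRNA genes, 40.7%, 42.8% and 44.1% were silent, a mean of 42.5% ± 1.67, against 12.7% ± 1.34 of the 2286 genes of 4 or more exons (SD, n = 3). Among protein-coding genes alone the share was 26.8% ± 1.79 with 1 exon, 18.4% ± 1.71 with 2, 15.8% ± 1.50 with 3 and 13% ± 1.22 with 4. The median level rose over the same classes from 3.30 ± 0.175 to 6.35 ± 0.239, 9.27 ± 0.151 and 11.5 ± 0.565 CPM per kb, and was 6.93 ± 0.414 at 8 or more. Among protein-coding genes over 2000 bases, 6.65% ± 0.733 of those with 1 exon were silent. With 2 or 3 exons the share was 3.21% ± 0.752 and with 4 or more 3.45% ± 0.459. At 1000 to 2000 bases the 3 shares were 26.9% ± 2.14, 14.0% ± 1.74 and 16.2% ± 1.62. Under 1000 bases they were 68.5% ± 3.32, 60.9% ± 3.76 and 54.6% ± 5.55. Above 1000 bases the share thus did not fall from 2 or 3 exons to 4 or more. The genes with most exons, among those that overlap no other, had low levels: NCU06011 (17 exons) had 0.413 ± 0.135 CPM per kb, gh13-2 (16 exons), of a glycoside hydrolase family, 0.327 ± 0.146, and NCU03398 (14 exons) 2.13 ± 0.117.

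**Figure D3:**
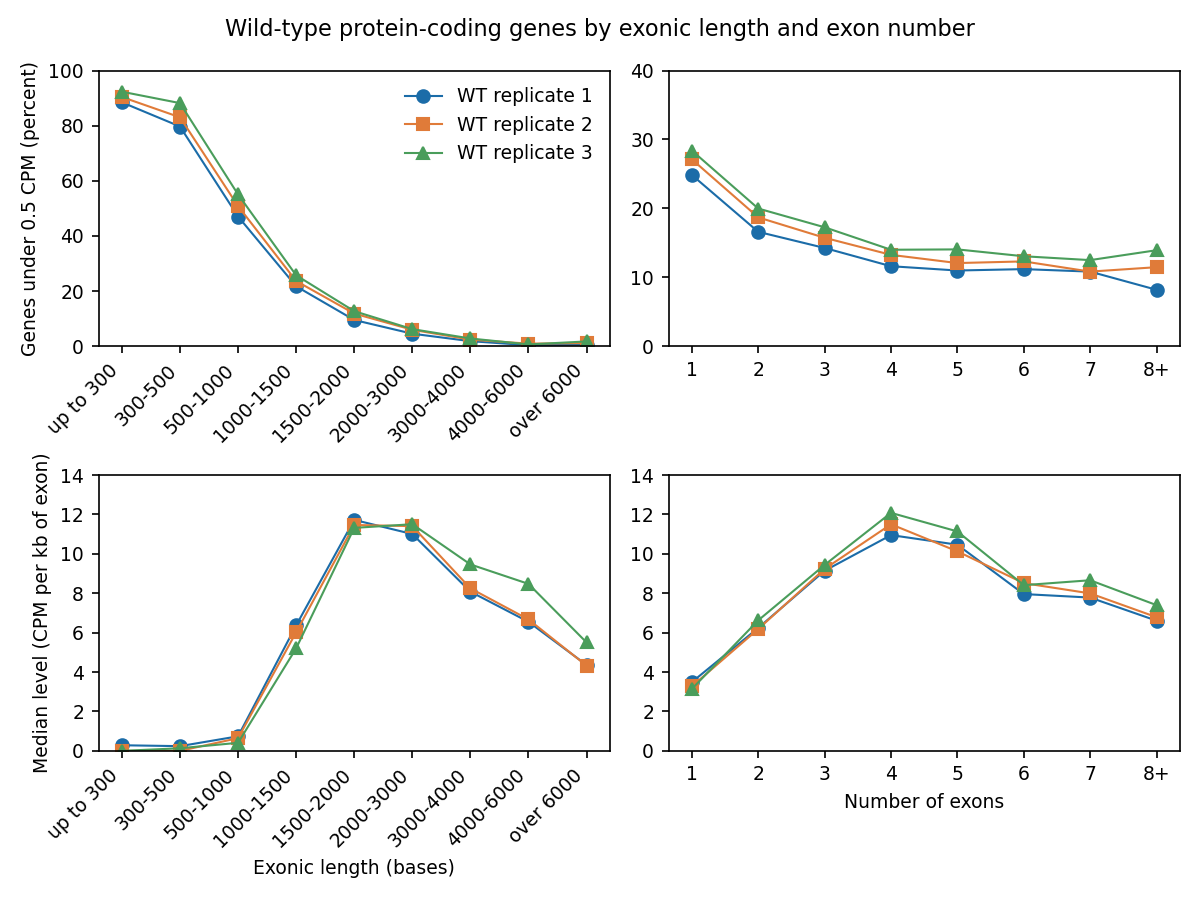
Percent of protein-coding genes under 0.5 CPM (upper panels) and median level in CPM per kb of exon (lower panels), by exonic length in bases (left) and number of exons (right), with a line for each of the 3 WT libraries. The 3 libraries follow the same course, and the median per length is highest at 1500 to 3000 bases and at 4 exons.

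Across genes with a mean of at least 0.5 CPM, the Spearman correlation of exon number with CPM per kb was 0.165 ± 0.00526 (SD, n = 3 libraries). That of exonic length was -0.0783 ± 0.0399. The latter depended on which genes were let in: it was 0.364 ± 0.0236 over all 10398 genes and -0.380 ± 0.0414 over genes with a mean of 5 CPM or more. Genes are not independent of each other and share the library, so these are descriptions.

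Levels of 15 gene lists, matched by gene symbol, were described next. Symbols were rarer among silent protein-coding genes (2.37% of 1476) than among the others (13.1% of 8253). Of the 1118 genes with a symbol, 35 were silent in all 3 libraries. The 15.2% of all protein-coding genes is therefore not a like background for the lists. All 7 ribosomal protein genes with a symbol (crp-) were above 700 CPM per kb, from crp-3, which overlaps another gene, with 736 ± 153 to crp-7, described above. Of the 9 histone genes, hH2A was highest with 1254 ± 249 CPM per kb, and the variant hH2Az lowest with 17.1 ± 1.42; both overlap another gene. All 29 genes of respiratory complex I were above the median protein-coding gene, from nuo11.6 (34.1 ± 3.09, overlapping) to nuo20.9 (476 ± 56.1). All 14 of the vacuolar ATPase were also above it, from vma-9 (27.3 ± 2.09, overlapping) to vma-2 (266, 263 and 282 in the 3 libraries). So were 59 of 60 genes of amino acid synthesis, led by met-8 with 1882 ± 176 CPM per kb. The other, pro-1, had 0.387 ± 0.163 CPM per kb; it overlaps another gene, and reads over 2 genes are not in these counts. Among 10 genes of nitrogen use, am, the NADP-dependent glutamate dehydrogenase, was highest with 1194 ± 396 CPM per kb and the nitrate pathway regulator nit-4 lowest with 1.48 ± 0.118. The 11 heat shock genes ran from hsp30 (6.48 ± 1.47, overlapping) to hsp70-2 (990 ± 199).

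The quinic acid cluster, for the use of another food source, was low on glucose medium. The 7 genes of the quinic acid cluster had between 0.681 ± 0.633 (qa-X) and 4.74 ± 0.320 CPM per kb (qa-Y, the quinate permease, overlapping), all below the median protein-coding gene. A list of 82 enzymes that act on polysaccharides was not sorted by whether they serve the use of food. Of these, 22 were above that median and 8 (9.76%) were silent in all 3 libraries. Of all protein-coding genes 15.2% were silent, but only 35 of the 1118 with a symbol. The silent ones were gh10-4, gh10-1, gh3-7, gh18-1, gh76-1, gh7-3, gh47-8 and gh61-4, with 0 to 8 reads over the 3 libraries, and gh16-1 was highest with 229 ± 25.6 CPM per kb. Of 8 secondary metabolism genes, 1 (12.5%) was silent, against the same 2 backgrounds. This was pks-5, a polyketide synthase gene of 7887 exonic bases 15.1 kb from an end of IV, with no read. It overlaps another gene. The highest of that list was ssp-1 with 81.7 ± 7.70.

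Genes of sporulation and mating spread widely. Of 10 conidial genes con-8 was highest with 32.9 ± 12.4 CPM per kb. Only con-13 (10% of the list) was silent, with 3, 3 and 1 reads. This compares with 15.2% of all protein-coding genes and 35 of the 1118 with a symbol. Of 16 genes of the sexual cycle, asd-1 of ascus development was highest with 62.8 ± 23.6 CPM per kb. Of the 16, 4 (25%) were silent in all 3 libraries, against the same 2 backgrounds. The 4 were matA-1, matA-2 and matA-3, the mating-type genes of the reference strain (chromosome I from 1857194 to 1862194), with no read in any WT library, and ccg-4, a pheromone precursor gene, with 1, 1 and 0 reads. The mating type is not stated in the labels, and whether WT carries the mat A genes was not tested. The 25% counts them as silent. In the 9 libraries of the other strains each mat A gene had at most 1 read.

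The 25 light and clock genes ranged from ccg-16 down to ccg-4, the only silent member (4%), with a list median of 19.3 ± 5.10 CPM per kb. Of 32 genes of genome defence and chromatin none reached a mean of 100 CPM; cac-3 was highest with 29.2 ± 3.10 CPM per kb. Of the 32, 4 (12.5%) were silent in all 3 libraries, against 15.2% of all protein-coding genes and 35 of the 1118 with a symbol. The 4 were sad-1 and sad-2 and the Argonaute gene sms-2, all known from meiotic silencing, with 14, 4 and 7 reads in all, and set-5 with 10 reads, which overlaps another gene. Of 5 genes of heterokaryon incompatibility, vib-1, a transcription factor, was highest with 77.5 ± 6.35 CPM per kb and pin-c lowest with 1.31 ± 0.132.

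**Figure D4:**
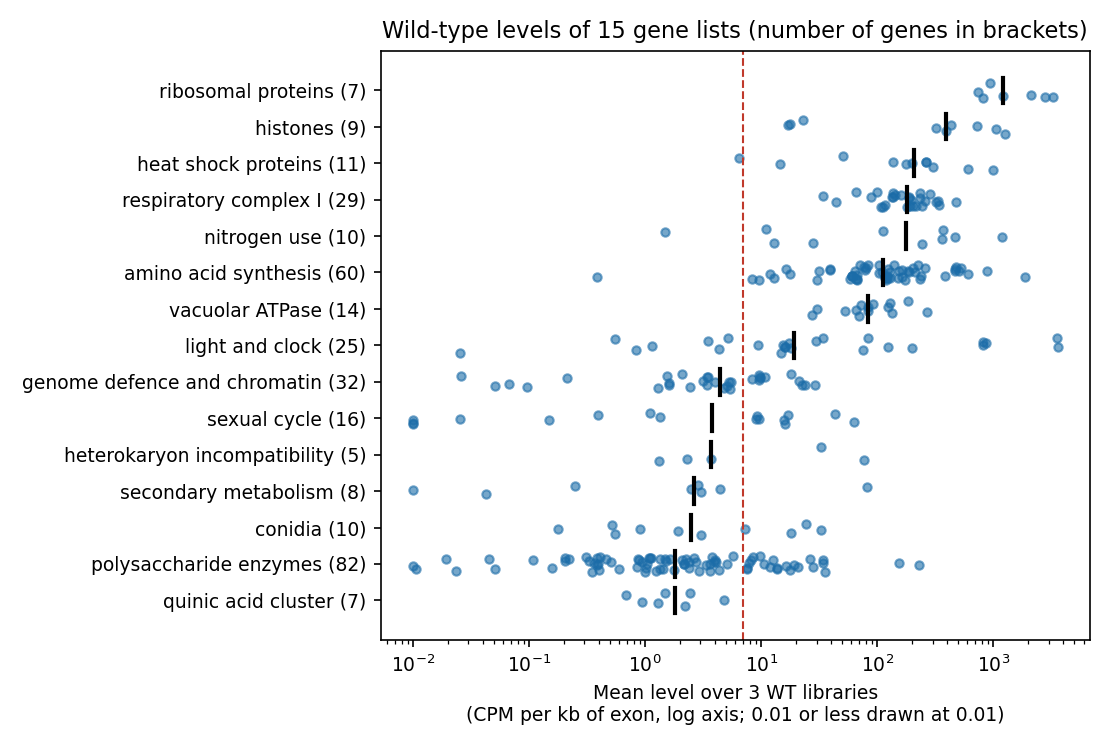
Mean level of each gene over the 3 WT libraries in CPM per kb of exon (log axis, values of 0.01 or less drawn at 0.01), by gene list with the number of genes in brackets. Black bars are list medians and the dashed line is the median protein-coding gene at 6.97 CPM per kb; ribosomal proteins stand highest with a median of 1204.

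Genes differed in how stable they were between libraries. For protein-coding genes with a mean of 100 CPM or more the median coefficient of variation was 14.3%, and it was 25.2% at 1 to 10 CPM. Near ends these values were 15% and 26.6%. Of 5709 protein-coding genes with a mean of 10 CPM or more, 623 (10.9%) differed by over 2-fold between their highest and lowest library; replicate 3 was lowest for 327 of them and highest for 294. Among genes that overlap no other, the largest spread was in ccg-13, a clock-controlled gene, with 1847, 753 and 129 CPM in replicates 1, 2 and 3. tcu-1, a copper transporter gene, had 275, 153 and 28.2 CPM, and ncw-3, a cell wall protein gene, had 4573, 2837 and 476 CPM. acu-6, the gene of phosphoenolpyruvate carboxykinase, had 80.2, 92.8 and 12.0 CPM, and NCU01873 had 50.1, 58.3 and 8.54 CPM. All 5 were lowest in replicate 3, the library with the other tag.

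The near-end share of silent genes was compared with that of the 3 deletion strains, which asks whether the WT pattern depends on SET-7 or on the H2A.Z gene. The deleted genes were lower in their strains but not without reads: set-7 had 8.35, 9.62 and 7.85 CPM in WT and 3.92, 3.48 and 2.71 CPM in dset7, and hH2Az had 65.6, 76.9 and 74.9 CPM in WT and 16.7, 17.9 and 32.5 CPM in dhH2Az. In dhH2Az_dset7 set-7 had 5.15, 3.17 and 3.12 CPM and hH2Az 37.8, 35.2 and 23.1 CPM, so that no deletion library overlapped WT for its deleted gene. The labels used here do not say which bases were deleted, and the source of the remaining reads was not tested. The near-end share was 19.5%, 21.2% and 22.8% in dset7, below each WT library, with a difference to WT of -6.59 percentage points. In dhH2Az it was 30.9%, 30.5% and 33.2%, overlapping WT, with a difference of 3.74 points, and in dhH2Az_dset7 it was 23.0%, 26.1% and 20.7%, also overlapping WT, with -4.51 points. The exact 2-sided permutation tests gave p of 0.10 for dset7, 0.30 for dhH2Az and 0.20 for dhH2Az_dset7, each 0.30 after Benjamini-Hochberg adjustment over 3 comparisons. The smallest p that 3 against 3 libraries allow is 0.10, so none could pass 0.05, and the 3 comparisons share the WT libraries.

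Elsewhere in the genome the shares were 20.7% ± 0.885 in dset7, 22% ± 0.898 in dhH2Az and 21.5% ± 1.04 in dhH2Az_dset7, against 21.9% ± 1.46 in WT. The near-end share minus the share elsewhere was therefore 0.495 ± 0.808 points in dset7, 9.54 ± 0.551 in dhH2Az and 1.79 ± 1.98 in dhH2Az_dset7, against 5.86 ± 2.36 in WT (all SD, n = 3). In this measure every dhH2Az library (9.29, 9.16 and 10.2) lay above, and every dset7 library (-0.196, 0.298 and 1.38) below, each WT library (3.20, 6.71 and 7.69). Exact permutation tests of it, added after seeing the data and not adjusted, gave p of 0.10 for dset7 and dhH2Az and 0.20 for dhH2Az_dset7. At 200 to 500 kb the share of silent protein-coding genes was 26.8% ± 1.98 in dset7, 31.9% ± 1.28 in dhH2Az and 27.7% ± 2.79 in dhH2Az_dset7, against 32.0% ± 3.18 in WT. Genes without a read made up 8.83% ± 1.88 of all genes in dset7, 12.2% ± 0.418 in dhH2Az, 8.66% ± 3.46 in dhH2Az_dset7 and 11.3% ± 2.17 in WT, so this share was lowest in the strains with the lower near-end values; its part in the result was not tested.

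**Figure D5:**
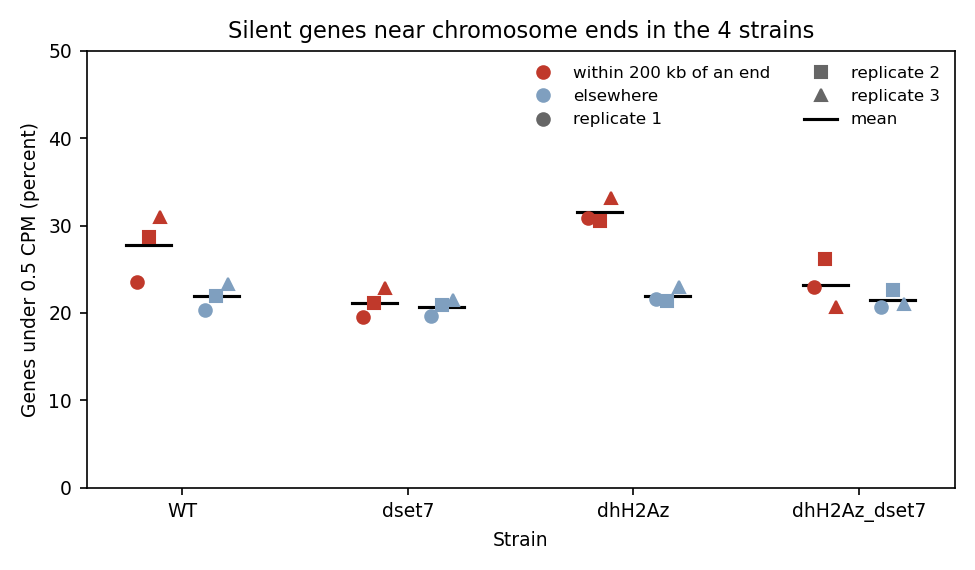
Percent of genes under 0.5 CPM within 200 kb of a chromosome end and elsewhere in the 4 strains; points are libraries (circle, square and triangle for replicates 1, 2 and 3) and lines are means. The near-end values lie between 19.5% and 22.8% in dset7 and between 23.6% and 31.0% in WT, while the values elsewhere lie between 19.7% and 23.3% in all strains.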

How the data were processed

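Whole-number read counts per gene were deposited for the 12 RNA-seq libraries, made by the authors with featureCounts 1.6.2 on NC12 exons, per the file headers. Strand, multi-mapping and multi-overlap options were not set, so reads over 2 genes were left out and antisense reads were not told apart; 2406 genes overlap another. BWA 0.7.15 is named in the submitters' processing notes for all samples, and its part in these counts is unstated. All 12 columns were used. Other samples were not analysed here.

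Genes were named by the NC12 table of RefSeq (10397 of 10398 genes matched by position). No genome was held, so each right chromosome end is the end of its last gene.

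CPM used TMM factors from 8372 genes (edgeR 4.0.16, R 4.3.3) over 12 libraries. Shares were computed per library and given as mean ± SD, n = 3. Between strains an exact 2-sided permutation test was used (scipy 1.17.1). The code was tested on simulated data. Totals of 13581416 to 16913628 counts put 3 reads at 0.173 to 0.253 CPM in WT.

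Members and lists were chosen with earlier results of these data known. Genes named are, without overlapping ones, the highest per chromosome, the 10 highest near ends, the 5 longest unread near ends and elsewhere, the 3 with most exons and the 5 with the largest spread. They are also the ends of the 5 longest silent runs and each list's highest, lowest and silent members. NCU06110 and emp-7 were named after their values were seen.

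Same-numbered libraries of WT and dset7 deviated together (correlations 0.530, 0.272 and 0.243); those of WT and the other strains did not (-0.438 to 0.0667). Alternatives were total counts, DESeq2 1.42.0 size factors, other thresholds, distances and gene filters, each library left out, the tag 920 alone and the replicate block. For the strains, the share elsewhere was also subtracted in each library.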

Additional observations from a re-analysis of the deposited data

How the results depend on the processing

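The directions of the near-end difference and of the strain differences held under every alternative except those named here. In the order near ends, elsewhere, difference, single-exon genes, genes of 4 or more exons and the zone at 200 to 500 kb, the silent shares were 11.1, 11.4, -0.219, 28.1, 4.36 and 12.0 when silent meant no read, and 11.8, 11.8, 0.0239, 28.7, 4.68 and 12.8 when no read was expected at the smallest total. They were 34.1, 25.7, 8.45, 46.7, 16.7 and 37.4 under 1 CPM, and 22.8, 14.4, 8.38, 24.9, 10.5 and 26.2 without genes under 500 bases. Near-end distances of 100 and 500 kb gave near-end shares of 23.7 and 32.0 with differences of 1.43 and 11.8 points, and 20.2 elsewhere at 500 kb. Under 0.5 CPM per kb, genes of 4 or more exons had 15.3. Without overlapping genes the share was 23.8 elsewhere and 14.1 for 4 or more exons, and the Spearman correlation of length with level was -0.0350. Protein-coding genes alone, the 500 kb distance and the zone at 200 to 500 kb were added after seeing the data. So was subtracting the share elsewhere from the near-end share in the strain comparisons. Protein-coding genes alone gave 17.5 elsewhere and 26.8 for single-exon genes. The Spearman correlation of length with level was 0.364 without a filter and -0.380 at 5 CPM, and that of exon number was 0.271 without a filter and 0.171 without near-end genes. DESeq2 size factors gave the shares of TMM exactly, since the threshold fell on the same whole number of reads.

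Leaving out a WT library gave near-end shares of 26.1 to 29.8 and differences of 4.95 to 7.20 points. With the replicate block the paired strain differences were -6.59 (dset7), 3.74 (dhH2Az) and -4.51 (dhH2Az_dset7), each with an exact sign-flip p of 0.25, the smallest that 3 pairs allow. Over all alternatives these differences ranged from -8.67 to -3.84, 1.45 to 5.47 and -6.97 to -1.59 points, and none passed 0.05, which none of these designs could reach. Without WT replicate 1 the dhH2Az difference was 1.66, and without WT replicate 3 the dhH2Az_dset7 difference was -2.89. Where no alternative is named as cause, the cause was not tested. Shares of rarely read genes are limited by depth.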
